A study of Homo sapiens with 6 samples.

Results

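The 43 genes described here encode the proteins that license, start and carry out DNA replication in S phase, together with the E2F factors and E cyclins that act upstream of them. The rule lists them by gene symbol and uses no measured value, but the list was drawn up with earlier results of these data known. All 43 were found among the 19903 genes listed in each library. All 43 also passed the filter used for testing, which kept the 12184 protein-coding genes with a mean of at least 1 FPKM over the 6 libraries. FPKM is the number of sequenced fragments of a gene scaled to its transcript length and to the library total, so levels can be compared between genes within a library, while differences between libraries also depend on the scaling.

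RNA was sequenced from the human lung cancer lines A549 and H1299 and from a line labelled H2030, all at passage 5. The malin group held 1 library of each line with a vector that overexpresses NHLRC1, which encodes the E3 ubiquitin ligase malin. The empty-vector group held 1 library of each line with the vector alone. Neither vector was replicated within a line, and the labels do not say whether the cultures were independent, so p-values measure only the spread between these libraries. The promoter of the vector, and whether the cells were clones or pools, were not found in the sources used here.

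With the malin vector the NHLRC1 value was higher in every pair, at 6.82 against 1.21 FPKM in A549, 119.2 against 2.85 FPKM in H1299 and 3.69 against 0.18 FPKM in the H2030-labelled pair (malin against empty vector; mean log2 difference 2.93 ± 1.77, SD, n = 3; exact paired permutation p = 0.25, two-sided, the smallest that 3 pairs allow). Estimated depth was 8300000 to 10700000 fragments per library. The FPKM column of the malin library labelled H2030 was headed with a short name of HEK293T, an embryonic kidney line, so both libraries of the pair are called H2030-labelled in what follows. Of 11 kidney and neuronal marker genes, 5 were higher and 3 lower in both libraries of that pair than in all 4 others. Of all tested genes, 37.5% were higher and 16.7% lower in that pair by the same measure. The neurofilament genes NEFM and NEFL were higher there. NEFM had 52.6 and 30.5 FPKM with malin and empty vector, against at most 2.11 FPKM elsewhere, and NEFL had 31.7 and 23.4 FPKM, against at most 4.61 FPKM. INA, a further neuronal filament gene, and TUBB3, a neuronal tubulin, were lower there. INA had 6.12 and 9.30 FPKM, against at least 22.9 FPKM elsewhere, and TUBB3 had 7.24 and 10.3 FPKM, against at least 138 FPKM. Of 12 epithelial and lung marker genes, 2 were higher and 3 lower in both libraries of the H2030-labelled pair than in all 4 others. KRT7, a simple-epithelium keratin, set A549 apart instead, at 1269 and 1302 FPKM there and at most 1.24 FPKM in the other 4 libraries. The keratins KRT8 and KRT18 were lowest in the H2030-labelled pair. KRT8 had 77.6 and 88.2 FPKM with malin and empty vector, against at least 225 FPKM elsewhere. KRT18 had 72.9 and 83.2 FPKM, against at least 724.8 FPKM. The 2 higher markers in the H2030-labelled pair were EPCAM and the lung lineage factor NKX2-1. EPCAM had 5.41 and 8.55 FPKM there with malin and empty vector, against at most 1.75 FPKM elsewhere. NKX2-1 had 3.78 and 1.85 FPKM there, at most 0.77 FPKM in H1299 and 0 in A549 with either vector. The leukocyte marker PTPRC reached at most 0.07 FPKM in any library.

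Replication origins are licensed when the origin recognition complex, CDC6 and CDT1 load the MCM2 to MCM7 helicase onto DNA. The helicase is later switched on by CDC45 and the GINS complex with the help of MCM10, after which polymerases alpha, delta and epsilon copy the strands on the sliding clamp PCNA, which the RFC complex loads. Many of these genes are transcribed at the entry into S phase, when cyclin E activity releases E2F factors from the retinoblastoma protein. Their mRNA is therefore widely used as a sign of proliferating cells, in lung tumours as elsewhere.

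E2F factors are known to bind short GC-rich sites close to the transcription start of such genes. The choice by symbol read no sequence, but it favoured genes known to be transcribed with E2F. The shares below are therefore not independent of the choice. In the RefSeq promoter table (GRCh38.p14), which covers 250 bases before to 50 bases after each start, 38 of the 43 genes were matched; MCM4, MCM5, GINS4, E2F8 and CCNE2 were not. The letters TTTCGCGC or TTTGGCGC, searched on both strands, occurred in the promoters of 12 of the 38 genes (31.6%). They occurred in 224 of the 10056 tested genes with a promoter entry (2.23%) and in 322 of all 27305 promoters in the table (1.18%). The motifs can overlap where a site reads alike on both strands, and each reading was counted. There were 16 matches in the 12 promoters, with a median position of -19 bases from the start and a range from -152 to 7. A match is a run of letters in this window and was not tested as a binding site. The following windows are shown because they belong to the licensing, polymerase and E2F genes whose levels are described next. Each is printed 5′ to 3′ on the strand of the gene, with the E2F letters in capitals:
MCM2, chr3:127598404-127598433, plus strand: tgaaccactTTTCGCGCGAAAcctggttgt
MCM3, chr6:52284728-52284757, minus strand: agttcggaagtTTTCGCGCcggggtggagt
MCM6, chr2:135876513-135876542, minus strand: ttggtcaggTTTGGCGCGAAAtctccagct
MCM7, chr7:100101388-100101417, minus strand: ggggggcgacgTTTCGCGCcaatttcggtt
CDC6, chr17:40287875-40287904, plus strand: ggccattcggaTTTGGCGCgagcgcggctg
POLE2, chr14:49688201-49688230, minus strand: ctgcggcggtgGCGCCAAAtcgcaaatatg
E2F1, chr20:33686387-33686416, minus strand: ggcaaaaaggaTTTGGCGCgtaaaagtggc
E2F2, chr1:23531257-23531286, minus strand: gcggcacgacgTTTGGCGCtaaaaaaaaaa

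In the MCM2 and MCM6 windows motif letters on one strand overlap motif letters on the other, whereas the other 6 windows hold a motif once. The whole MCM6 promoter held 4 matches. The remaining matches were in GINS1, POLA1, POLA2 and POLE. By role, 5 of 8 licensing genes, 4 of 13 polymerase and clamp genes, 2 of 3 E2F and cyclin E genes and 1 of 6 helicase activation genes held E2F letters, against 0 of 4 nucleotide supply and 0 of 4 chromatin assembly genes. CCAAT, the letters read by the factor NF-Y, was present on either strand in 22 of 38 promoters (57.9%), against 37.2% of tested genes and 35.7% of all promoters. Among 18 G2 and mitosis genes with an entry, E2F letters were present in 2 (11.1%) and CCAAT in 16 (88.9%).

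The sum of their FPKM was largest in the H2030-labelled libraries, at 0.594% and 0.667% of the library total with malin and empty vector, compared with 0.415% and 0.434% for A549 and 0.450% and 0.462% for H1299. Their median level was 54.3 and 50.3 FPKM with malin and empty vector in the H2030-labelled libraries, 29.5 and 31.4 FPKM in A549 and 31.8 and 33.4 FPKM in H1299. PCNA was the most abundant in A549 (317 and 331 FPKM with malin and empty vector) and in the H2030-labelled libraries (292 and 393 FPKM), and MCM7 in H1299 (305 and 316 FPKM). The least abundant in each library was E2F2, E2F8 or CCNE2, at 3.66 to 9.42 FPKM. In bulk RNA, fewer cells in S phase and less replication mRNA per cell cannot be told apart.

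**Figure D1:**
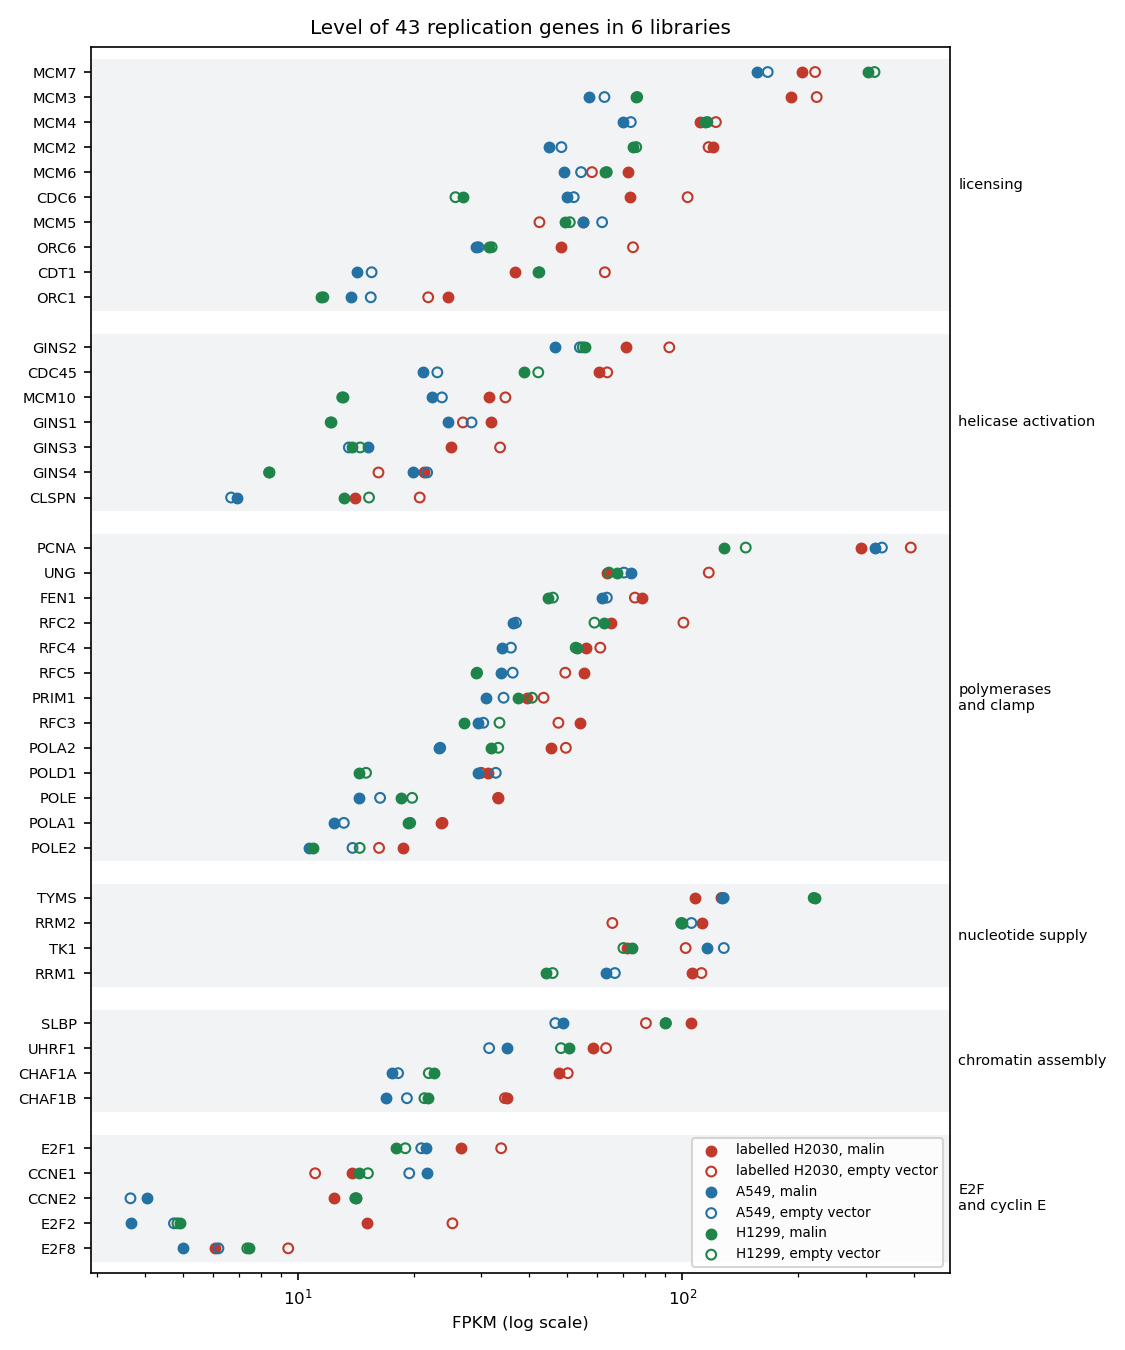
Level of each of the 43 replication genes (rows) in FPKM on a log axis, with filled points for malin and open points for empty-vector libraries and 1 colour per line, grouped by role. The 2 points of a line mostly lie closer to each other than to those of the other lines. The rightmost gene is PCNA in the A549 and H2030-labelled libraries and MCM7 in the H1299 libraries, at 292 to 393 FPKM.

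How the lines differed in these genes was tested with limma across all 12184 genes, with the vector as a term and 2 libraries per line. The fit shared the spread of each gene over the lines. Differences within a pair were wider in the H2030-labelled pair (SD over all genes 0.40) than in A549 (0.18) and H1299 (0.16). The errors of contrasts with the H2030-labelled libraries may therefore be too small, and their p-values too low. Of the 43 genes, 31 (72.1%) were higher in the H2030-labelled libraries than in A549 at an adjusted p under 0.05, where 45.0% of all tested genes were, and 2 (4.65%) were lower, where 22.1% of all were. Against H1299, 24 (55.8%) were higher in the H2030-labelled libraries, where 40.9% of all tested genes were, and 2 (4.65%) were lower, where 23.8% of all were. Both contrasts use the same libraries labelled H2030. Between A549 and H1299, 10 genes (23.3%) were higher in A549, where 27.2% of all tested genes were, and 17 (39.5%) were lower, where 34.5% of all were. The median log2 difference of the 43 genes was 0.69 from A549, 0.54 from H1299 and -0.18 for A549 minus H1299, beside 0.29, 0.22 and -0.09 for all tested genes.

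The shift of all genes towards the H2030-labelled libraries depended on the scaling. Under median-of-ratios scaling the median of all genes was 0.00 against A549 and 0.02 against H1299. With that scaling 23 of the 43 genes were higher and 6 lower in the H2030-labelled libraries than in A549, beside 31.6% and 32.8% of all genes. Against H1299, 23 were higher and 3 lower, beside 32.2% and 31.2% of all genes. Relative to the median of all genes, the median of the 43 lay 0.41 higher in the H2030-labelled libraries than in A549 as deposited and 0.37 higher under that scaling, and 0.33 and 0.30 higher than in H1299. Under quantile normalization it lay 0.62 higher than in A549 and 0.54 higher than in H1299. Leaving out 1 library at a time gave 24 to 33 genes higher in the H2030-labelled libraries than in A549 and 20 to 29 than in H1299. The count lower than in A549 was then 1 without either A549 library, and 5 and 4 without the malin and the empty-vector library labelled H2030. The count lower than in H1299 was 5 without the malin library labelled H2030. For A549 minus H1299, 6 genes were higher without the H1299 empty-vector library. The count lower was 9 and 11 without the H1299 malin and empty-vector libraries and 11 without the A549 empty-vector library. Both libraries labelled H2030 lay above the other 4 in 24 of the 43 genes (55.8%), where 37.5% of all genes did, and both A549 libraries lay below the other 4 in 22 (51.2%), where 33.5% of all genes did.

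The counts by role that follow use the values as deposited and were not recomputed under another scaling. As deposited, 45.0% of all tested genes were higher in the H2030-labelled libraries than in A549 and 40.9% than in H1299. Among the licensing genes, 8 of 10 were higher in the H2030-labelled libraries than in A549. MCM3 was at 192 and 224 FPKM with malin and empty vector in the H2030-labelled libraries, 57.2 and 62.7 FPKM in A549 and 75.6 and 76.3 FPKM in H1299. MCM2 was at 120 and 117 FPKM, 45.0 and 48.5 FPKM, and 74.3 and 75.9 FPKM in the same order. In both of these helicase subunits the 2 libraries labelled H2030 lay above all others, by 1.77 ± 0.09 and 1.32 ± 0.09 on the log2 scale over A549 (limma, SE; adjusted p = 4.12e-05 and 8.87e-05). CDC6, an ATPase that loads the helicase, was at 73.1 and 103 FPKM with malin and empty vector in the H2030-labelled libraries, 49.99 and 52.2 FPKM in A549 and 26.9 and 25.7 FPKM in H1299. Its lowest line was thus H1299 (libraries labelled H2030 minus H1299 1.69 ± 0.15, limma, adjusted p = 0.000237). CDT1, its partner in loading, was at 36.6 and 62.9 FPKM with malin and empty vector in the H2030-labelled libraries, 14.2 and 15.5 FPKM in A549 and 42.1 and 42.5 FPKM in H1299. It was lowest in A549 (A549 minus H1299 -1.45 ± 0.19, limma, adjusted p = 0.00135), so the ratio of CDC6 to CDT1 was 3.51 and 3.36 with malin and empty vector in A549 and 0.639 and 0.605 in H1299.

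The 6 helicase subunits, which form a ring of 1 copy each, did not share 1 order across lines. MCM7 was the highest of them in 5 libraries, at 157 to 316 FPKM, and MCM3 in the empty-vector library labelled H2030. MCM7 was lower in the H2030-labelled libraries than in H1299 (log2 difference -0.54 ± 0.08, limma, adjusted p = 0.00181). MCM5 (55.3 and 42.5 FPKM with malin and empty vector in the H2030-labelled libraries, 55.1 and 61.8 in A549, 49.4 and 50.9 in H1299) and MCM6 passed in none of the 3 line contrasts. The highest subunit stood 3.44 to 6.21 times above the lowest within a library. ORC1 and ORC6, subunits of the origin recognition complex, were both higher in the H2030-labelled libraries than in A549, by 0.64 ± 0.12 and 1.009 ± 0.17 (limma, adjusted p = 0.00525 and 0.00268).

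Of the 7 helicase activation genes, 5 were higher in the H2030-labelled libraries than in A549 and 6 than in H1299. CDC45, the helicase cofactor, was at 60.8 and 63.7 FPKM with malin and empty vector in the H2030-labelled libraries, 21.2 and 23.0 FPKM in A549 and 38.6 and 42.2 FPKM in H1299. The difference from A549 was 1.45 ± 0.09 on the log2 scale (limma, adjusted p = 7.21e-05). MCM10, which helps to activate the helicase, was at 31.3 and 34.6 FPKM, 22.3 and 23.7 FPKM, and 13.1 and 13.0 FPKM in the same order, with H1299 lowest (libraries labelled H2030 minus H1299 1.27 ± 0.10, limma, adjusted p = 0.00018). The GINS subunits split between the lines. GINS1 and GINS4 were higher in the H2030-labelled libraries and in A549 than in H1299, with GINS4 at 16.2 to 21.7 FPKM in those 4 libraries against 8.38 and 8.40 FPKM with malin and empty vector in H1299 (limma, adjusted p from 0.000551 to 0.00144), whereas GINS3 was higher in the H2030-labelled libraries than in A549 by 0.97 ± 0.16 (limma, adjusted p = 0.00231). GINS2 was the most abundant GINS subunit in every library, at 46.7 to 92.5 FPKM. CLSPN encodes claspin, a fork protein that relays replication stress, and was lower in A549 than in H1299 (log2 difference -0.96 ± 0.16, limma, adjusted p = 0.00341).

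Among the 13 polymerase, clamp and Okazaki fragment genes, 10 were higher in the H2030-labelled libraries than in A549 and 7 than in H1299, and 0 were lower in either contrast. PCNA was at 292 and 393 FPKM with malin and empty vector in the H2030-labelled libraries, 317 and 331 FPKM in A549 and 128 and 146 FPKM in H1299. It was higher in the H2030-labelled libraries (1.30 ± 0.11, limma, adjusted p = 0.000206) and in A549 (1.24 ± 0.11, limma, adjusted p = 0.000312) than in H1299, and the H2030-labelled libraries and A549 overlapped. POLD1, the catalytic subunit of polymerase delta, was likewise lowest in H1299, at 31.2 and 29.96 FPKM in the H2030-labelled libraries, 29.3 and 32.7 FPKM in A549 and 14.4 and 15.0 FPKM in H1299. POLE, the catalytic subunit of polymerase epsilon, was instead highest in the H2030-labelled libraries, at 33.0 and 33.2 FPKM, with 14.4 and 16.3 FPKM for A549 and 18.5 and 19.8 FPKM for H1299. POLA2, a subunit of the priming polymerase alpha, was higher in the H2030-labelled libraries than in A549 by 0.9993 ± 0.10 (limma, adjusted p = 0.00029). The 4 clamp loader genes RFC2 to RFC5 lay within a 1.23-fold and 1.22-fold range in the malin and empty-vector libraries of A549 and within a 2.31-fold and 2.02-fold range in those of H1299. UNG, a glycosylase that removes uracil from new DNA, did not pass in any line contrast.

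Of the 4 nucleotide supply genes, 1 was higher and 1 lower in the H2030-labelled libraries, both against A549 and against H1299. TYMS, which makes thymidylate, was at 108 and 126 FPKM with malin and empty vector in the H2030-labelled libraries, 127 and 128 FPKM in A549 and 222 and 220 FPKM in H1299. It was lower in the H2030-labelled libraries than in H1299 (log2 difference -0.91 ± 0.10, limma, adjusted p = 0.000475). TK1, the cytosolic thymidine kinase, was lower in the H2030-labelled libraries than in A549 (log2 difference -0.51 ± 0.15, limma, adjusted p = 0.0228). RRM1, the large subunit of ribonucleotide reductase, was higher in the H2030-labelled libraries than in A549 and H1299, by 0.74 ± 0.09 and 1.25 ± 0.09 (limma, adjusted p = 0.00062 and 9.81e-05). RRM2, its small subunit, passed in none of the line contrasts. All 4 chromatin assembly genes were higher in the H2030-labelled libraries than in A549. CHAF1A, the large subunit of the factor that places histones on new DNA, was at 47.7 and 50.3 FPKM with malin and empty vector in the H2030-labelled libraries, 17.5 and 18.2 FPKM in A549 and 22.6 and 21.9 FPKM in H1299 (difference from A549 1.41 ± 0.10, limma, adjusted p = 0.0001).

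E2F2, an activating E2F factor, had the widest range of line means of the 43 genes. It was at 15.1 and 25.2 FPKM with malin and empty vector in the H2030-labelled libraries, 3.67 and 4.75 FPKM in A549 and 4.92 and 4.85 FPKM in H1299, a difference of 1.99 ± 0.19 from A549 on the log2 scale (limma, adjusted p = 0.00029). E2F1, the other activator in the set, spanned 18 to 33.8 FPKM. CCNE2, 1 of the 2 E-type cyclins, was at 12.4 and 14.2 FPKM in the H2030-labelled libraries, 4.05 and 3.66 FPKM in A549 and 14.1 and 14.1 FPKM in H1299, and was lower in A549 than in H1299 (log2 difference -1.64 ± 0.13, limma, adjusted p = 0.000216). CCNE1, the other, was lower in the H2030-labelled libraries, at 13.8 and 11.1 FPKM with malin and empty vector, than in A549, at 21.6 and 19.5 FPKM (log2 difference -0.69 ± 0.13, limma, adjusted p = 0.0045). The ratio of CCNE1 to CCNE2 was thus 5.33 and 5.32 with malin and empty vector in A549, 1.02 and 1.08 in H1299 and 1.11 and 0.78 in the H2030-labelled libraries. CCNE2 shares 37.05% of its exonic bases with INTS8 on the opposite strand, and the sources used here do not say whether strand was used in counting, so its level is uncertain. The same holds for TYMS, which shares 39.15% with ENOSF1, and for MCM2 (22.71%), GINS4 (21.17%) and GINS3 (10.93%), which overlap antisense genes. POLA2, RRM2 and PRIM1 share 35.14%, 20.23% and 14.85% of their exonic bases with another gene on the same strand, so the counting could have divided their reads and their levels are uncertain too.

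**Figure D2:**
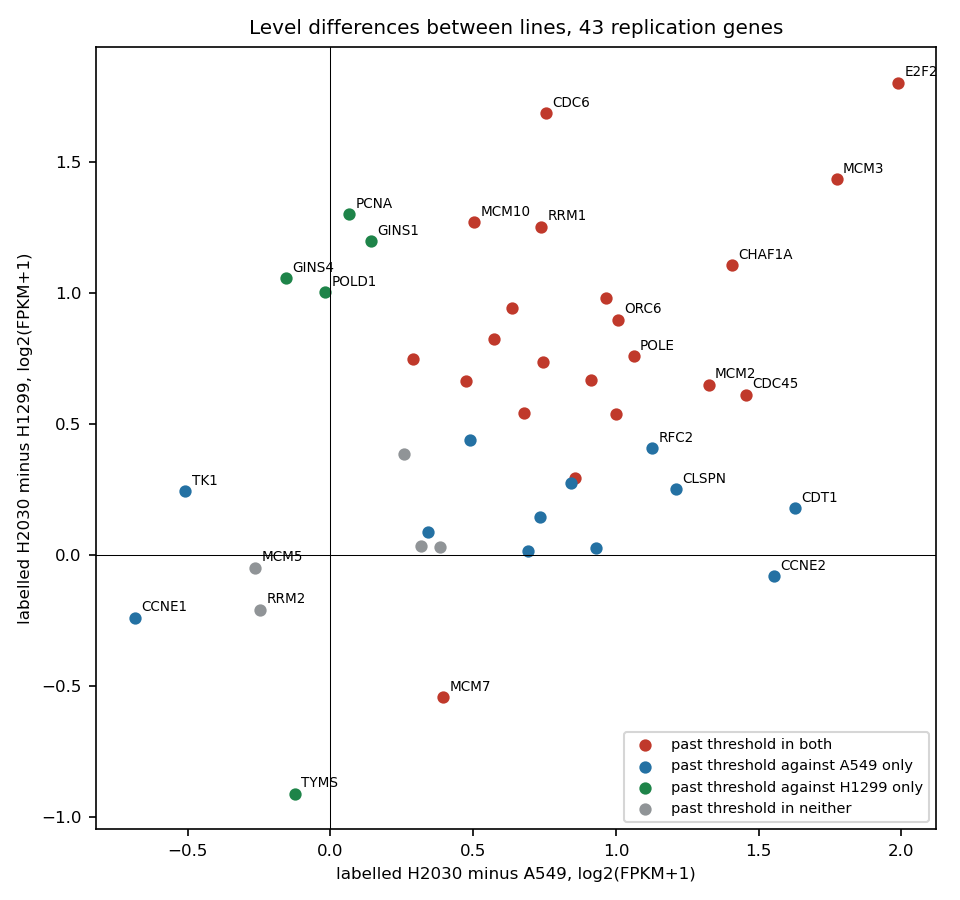
Difference of each of the 43 genes between the H2030-labelled libraries and A549 (x axis) and between the H2030-labelled libraries and H1299 (y axis), both in log2(FPKM+1), coloured by which contrast passed limma at an adjusted p under 0.05. Both axes share the H2030-labelled libraries; E2F2 and MCM3 lie farthest to the upper right, and TYMS and MCM7 lowest on the y axis.

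The effect of malin was tested over the 3 lines with the line as a block. Of the 43 genes, 0 passed an adjusted p of 0.05, and 0.0% of the 12184 genes tested did (limma, member adjusted p from 0.927 to 0.995). NHLRC1, the gene of the vector, was among the tested genes that did not pass, with a mean log2 difference of 2.93. The fit had 2 residual degrees of freedom, so the lack of calls does not show that the 43 genes were unchanged. At an unadjusted p under 0.05 there was 1 of the 43 genes, PCNA, beside 213 (1.75%) of all genes. PCNA had a mean log2 difference of -0.23 ± 0.09 (limma, SE, n = 3 pairs; unadjusted p = 0.0471, adjusted p = 0.927), and -0.13 without the H2030-labelled pair. None of the 43 genes was under an unadjusted 0.05 (limma) with a pseudocount of 5, without a filter, under median-of-ratios scaling, without the intensity trend, without the line as a block or without the A549 pair. There were 2 of the 43 without the H1299 pair, beside 385 of 12212 genes. There were also 2 without the H2030-labelled pair, beside 574 of 11609 genes. In both of these fits 0 of the 43 passed the adjusted threshold. The differences that follow are therefore values of single library pairs. In A549, 35 of the 43 genes (81.4%) were lower in the malin library and 8 higher, where 48.8% of all genes were lower and 49.5% higher. In H1299, 27 (62.8%) were lower and 16 higher, where 46.7% of all were lower and 51.5% higher. In the H2030-labelled pair 28 (65.1%) were lower and 15 higher, where 53.2% of all were lower and 45.9% higher.

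The 43 genes had a median log2 difference that stood at -0.08 for A549, -0.01 for H1299 and -0.12 for the H2030-labelled pair, beside 0, 0.005 and -0.03 over all genes tested, whose SD was 0.18, 0.16 and 0.40. Counting error alone gave a 95% interval with a median distance from the ratio to its bounds of 10.04%, 9.44% and 8.19% of the malin-to-empty ratio in the 3 lines, for the 42 genes with a transcript length. A difference of 1.5-fold on the FPKM+1 scale was reached by 0 of the 43 genes in A549, where 0.566% of all genes were lower and 0.542% higher by that much, and by 0 in H1299, where 0.148% were lower and 0.328% higher. In the H2030-labelled pair, 5 genes (11.6%) were lower by 1.5-fold, where 7.33% of all genes were, and 1 gene (2.33%) was higher, where 4.28% of all were. Under median-of-ratios scaling 3 were lower by that much.

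**Figure D3:**
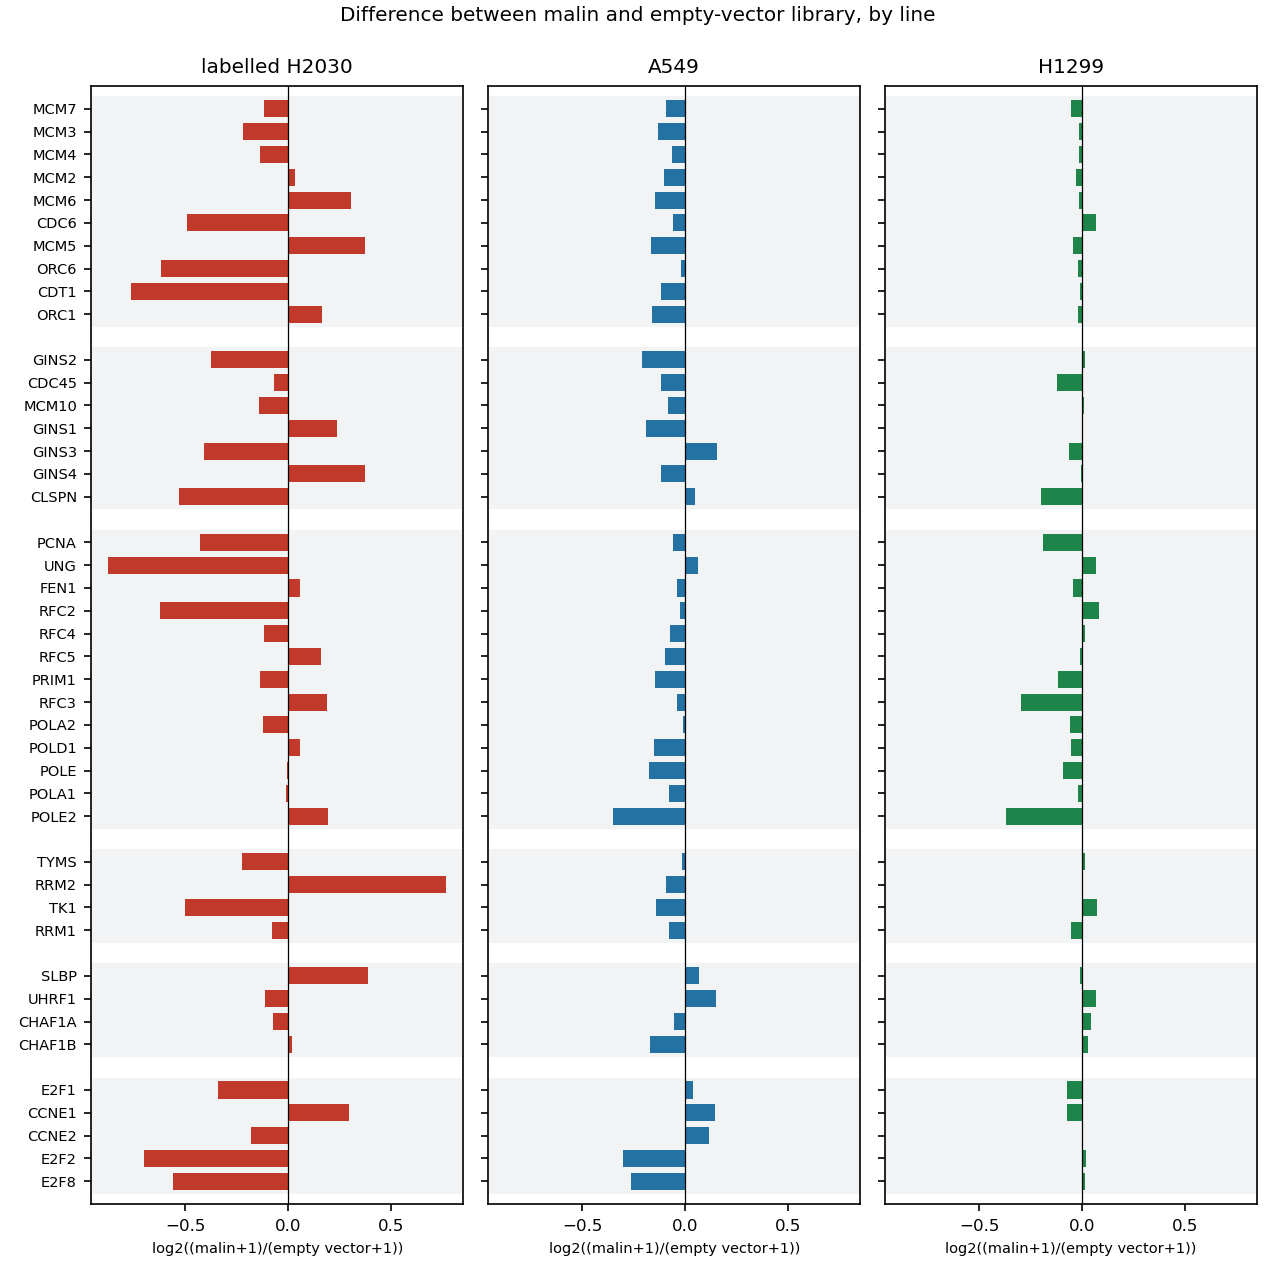
Log2 difference between the malin and the empty-vector library on the FPKM+1 scale for each of the 43 genes, as bars, with 1 panel per line and genes grouped by role. Bars left of 0 are lower with malin: most bars of A549 lie left of 0, those of H1299 are short, and those of the H2030-labelled pair spread from -0.87 for UNG to 0.77 for RRM2.

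Of the 43 genes, 12 (27.9%) were lower in the malin library of all 3 lines, where 11.3% of all genes were, and 0 were higher in all 3, where 11.0% of all were. PRIM1, the primase subunit that makes the RNA start of each new strand, had the most even difference. It was at 30.9 against 34.3 FPKM in A549, 37.4 against 40.6 FPKM in H1299 and 39.5 against 43.5 FPKM in the H2030-labelled pair (malin against empty vector). Its mean log2 difference was -0.13 ± 0.02 (SD, n = 3; limma, adjusted p = 0.927), and the counting interval of the ratio included 1 in each line. CDC45 was at 21.2 against 23.0 FPKM, 38.6 against 42.2 FPKM and 60.8 against 63.7 FPKM in the same order (-0.10 ± 0.03, SD, n = 3; limma, adjusted p = 0.927). MCM7 was at 157 against 167 FPKM, 305 against 316 FPKM and 204 against 222 FPKM, and its counting interval lay below 1 in each line (upper bounds 0.98 in A549, 0.99 in H1299 and 0.96 in the H2030-labelled pair). PCNA was at 317 against 331 FPKM, 128 against 146 FPKM and 292 against 393 FPKM, so its difference was larger in H1299 and in the H2030-labelled pair than in A549. The other genes of this count were the helicase subunits MCM3 and MCM4, the licensing factors ORC6 and CDT1, the reductase subunit RRM1 and the polymerase subunits POLA1, POLA2 and POLE. Without the H2030-labelled pair, 22 of the 43 genes (51.2%) were lower in both A549 and H1299, where 22.2% of 11609 genes were, and 0 of the 43 passed limma.

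Of the 10 licensing genes, 10 were lower in the malin library in A549, 9 in H1299 and 6 in the H2030-labelled pair, with median log2 differences of -0.11, -0.02 and -0.13. MCM2 to MCM7 were all lower in A549 and in H1299 (5 of 6 in H1299 under quantile normalization), with differences from -0.16 to -0.07 in A549 and from -0.05 to -0.01 in H1299. In the H2030-labelled pair the ring subunits split, with 3 lower and 3 higher. MCM5 was there at 55.3 FPKM with malin against 42.5 FPKM with empty vector and MCM6 at 72.2 against 58.2 FPKM, whereas MCM3 was at 192 against 224 FPKM. CDT1 was at 36.6 against 62.9 FPKM in that pair, malin over empty vector 0.58 (95% interval from the exact binomial, 0.54 to 0.63, for counting error alone), 14.2 against 15.5 FPKM in A549 and 42.1 against 42.5 FPKM in H1299. ORC6 was at 48.2 against 74.4 FPKM in the H2030-labelled pair, 29.1 against 29.5 FPKM in A549 and 31.5 against 31.9 FPKM in H1299. The 2 loading factors CDT1 and CDC6 (73.1 against 103 FPKM) and ORC6 were thus all lower with malin in the H2030-labelled pair, and within 1 FPKM between the vectors in H1299 for CDT1 and ORC6.

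The 7 helicase activation genes had median differences of -0.12 for A549, -0.003 for H1299 and -0.14 for the H2030-labelled pair, with 5, 4 and 5 of them lower. GINS2 was at 46.7 against 54.1 FPKM in A549, 55.7 against 55.1 FPKM in H1299 and 71.1 against 92.5 FPKM in the H2030-labelled pair. GINS3 was at 15.2 against 13.6 FPKM in A549, 13.8 against 14.5 FPKM in H1299 and 25.0 against 33.5 FPKM in the H2030-labelled pair, and GINS4 at 21.2 against 16.2 FPKM in that pair. The 4 subunits of 1 complex therefore lay on both sides of 0 in each line, in H1299 between -0.06 and 0.02 on the log2 scale (all 4 below 0 there under quantile normalization). CLSPN was at 14.1 against 20.7 FPKM in the H2030-labelled pair, 13.2 against 15.3 FPKM in H1299 and 6.95 against 6.69 FPKM in A549.

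Of the 13 polymerase and clamp genes, 12 were lower with malin in A549, 10 in H1299 and 8 in the H2030-labelled pair, with medians of -0.07, -0.05 and -0.01. POLE2, the second subunit of polymerase epsilon, had the lowest log2 difference of the 43 genes in both A549 and H1299. It was at 10.7 against 13.9 FPKM in A549, malin over empty vector 0.77 (interval 0.63 to 0.94), and at 11.0 against 14.5 FPKM in H1299, malin over empty vector 0.76 (interval 0.62 to 0.92). In the H2030-labelled pair it was at 18.7 against 16.2 FPKM, so it was not among the 12 genes lower in every line. UNG was at 63.6 against 117 FPKM in the H2030-labelled pair, malin over empty vector 0.54 (interval 0.50 to 0.58), but at 73.7 against 70.5 FPKM in A549 and 67.5 against 64.4 FPKM in H1299. RFC2, a clamp loader subunit, was also lower by 1.5-fold with malin in that pair, at 65.1 against 101 FPKM, and was at 36.2 against 36.9 FPKM in A549 and 62.6 against 59.1 FPKM in H1299. RFC3 was at 27.1 against 33.4 FPKM in H1299 and 54.3 against 47.6 FPKM in the H2030-labelled pair. PCNA, UNG, RFC3, RFC5 and FEN1 have named pseudogenes, as do ORC1, RRM2 and TYMS, so the counting could have divided their reads and these values are uncertain.

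Nucleotide supply genes were lower with malin in 4 of 4 cases in A549, 1 of 4 in H1299 (2 under median-of-ratios scaling) and 3 of 4 in the H2030-labelled pair. RRM2, the exception in the H2030-labelled pair, was at 113 FPKM with malin against 65.7 FPKM with empty vector, malin over empty vector 1.71 (interval 1.62 to 1.81), and at 99.0 against 106 FPKM in A549 and 99.8 against 99.4 FPKM in H1299. RRM1 was at 106 against 112 FPKM in the same pair, so the ratio of RRM2 to RRM1 was 1.06 with malin and 0.586 with empty vector. In A549 that ratio was 1.57 and 1.58, and in H1299 2.25 and 2.16. TK1 was at 71.7 against 102 FPKM in the H2030-labelled pair, 116 against 128 FPKM in A549 and 74.0 against 70.3 FPKM in H1299. TYMS was at 108 against 126 FPKM in the H2030-labelled pair, 127 against 128 FPKM in A549 and 222 against 220 FPKM in H1299.

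The 4 chromatin assembly genes had medians of 0.01, 0.04 and -0.03 in A549, H1299 and the H2030-labelled pair. SLBP, which binds the stem-loop of histone mRNA and is needed for its processing, was at 106 against 80.4 FPKM in the H2030-labelled pair, 49.02 against 46.7 FPKM in A549 and 90.1 against 90.6 FPKM in H1299. UHRF1, which helps to carry DNA methylation over to the new strand, was at 34.97 against 31.4 FPKM in A549, 50.7 against 48.3 FPKM in H1299 and 58.5 against 63.3 FPKM in the H2030-labelled pair. CHAF1B, the partner of CHAF1A, was at 16.9 against 19.2 FPKM in A549 and differed by less than 1 FPKM in both other pairs.

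The 5 E2F and cyclin E genes had medians of 0.04, 0.003 and -0.34 in A549, H1299 and the H2030-labelled pair. E2F2 was at 15.1 against 25.2 FPKM in the H2030-labelled pair, malin over empty vector 0.60 (interval 0.55 to 0.66), 3.67 against 4.75 FPKM in A549 and 4.92 against 4.85 FPKM in H1299. E2F8, a repressing member of the family, was at 6.07 against 9.42 FPKM, 5.00 against 6.20 FPKM and 7.46 against 7.37 FPKM in the same order of lines. E2F1 was at 26.5 against 33.8 FPKM in the H2030-labelled pair, 21.5 against 20.9 FPKM in A549 and 18 against 19.01 FPKM in H1299. The 3 E2F genes were thus lower with malin in the H2030-labelled pair, and in A549 E2F2 and E2F8 were. CCNE1 was at 13.8 against 11.1 FPKM in the H2030-labelled pair, 21.6 against 19.5 FPKM in A549 and 14.4 against 15.2 FPKM in H1299. The 12 genes with E2F letters in the promoter had medians of -0.12, -0.03 and -0.06 in A549, H1299 and the H2030-labelled pair, and the 26 without them -0.07, -0.01 and -0.11.

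Of 35 replication genes beyond the 43, 26 were lower with malin in A549, 20 in H1299 and 27 in the H2030-labelled pair, with medians of -0.06, -0.01 and -0.23, and 0 passed limma. CDC7, the kinase that triggers loaded helicases, was at 48.1 against 69.6 FPKM in the H2030-labelled pair, and RNASEH2A, a subunit of the nuclease that removes RNA from DNA, at 88.1 against 130 FPKM. Of 17 checkpoint and repair genes, 14, 10 and 10 were lower in the 3 lines. Of 21 E2F, RB and DREAM regulators, 9, 9 and 16 were lower. CDKN1A, an inhibitor of cyclin-dependent kinases, was at 8.93 against 19.3 FPKM in the H2030-labelled pair, 65.1 against 57.9 FPKM in A549 and 32.4 against 32.0 FPKM in H1299. None of the genes in these lists passed limma, at an adjusted p of 0.05 over all 12184 genes.

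Genes of G2 and mitosis, the stage that follows S phase, were mostly higher with malin in the H2030-labelled pair. Of 24 such genes, 19 were higher and 5 lower with malin there, with a median log2 difference of 0.38, and 0 passed limma over the 3 lines. In A549 18 of 24 were lower, with a median of -0.04, and in H1299 15, with a median of -0.03. MKI67, the proliferation antigen, was at 33.5 against 15.7 FPKM in the H2030-labelled pair, 30.7 against 32.0 FPKM in A549 and 36.5 against 42.4 FPKM in H1299. CCNB1, the mitotic cyclin B, was at 102 against 52.6 FPKM, 142 against 144 FPKM and 198 against 206 FPKM in the same order of lines. The share of cells in each stage was not measured, and the part that the stage of the cultures or the differing header of the malin library labelled H2030 plays in these values was not tested.

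**Figure D4:**
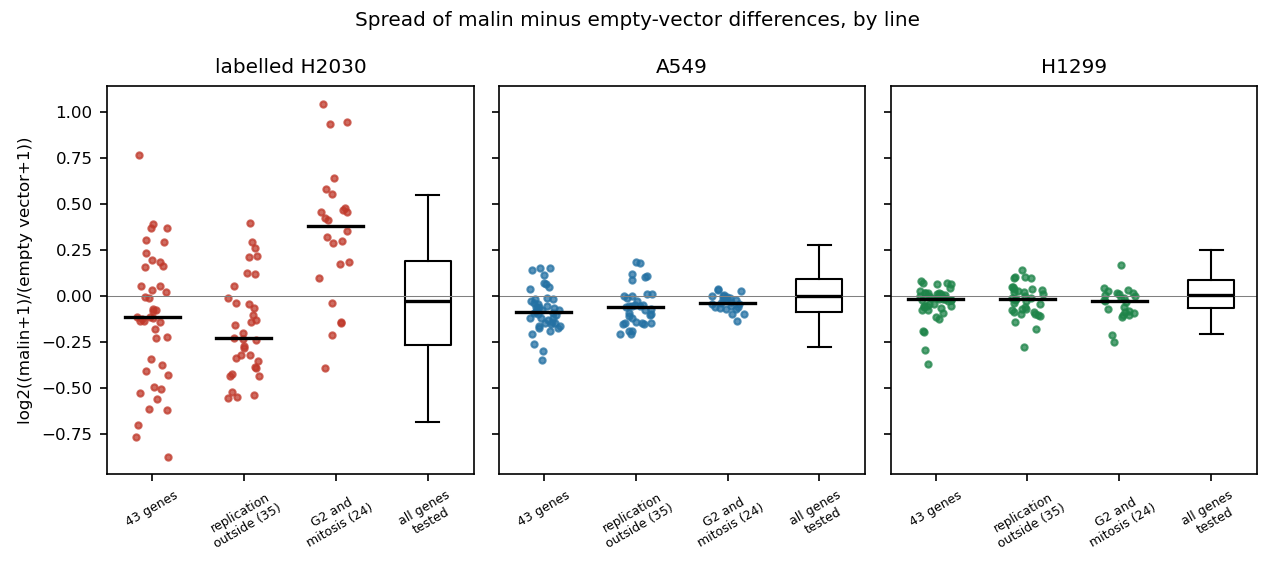
Log2 difference between the malin and the empty-vector library on the FPKM+1 scale in each line, for the 43 replication genes, 35 replication genes outside them, 24 G2 and mitosis genes (points, with the median as a bar) and all 12184 genes tested (box from the lower to the upper quartile, whiskers at the 5th and 95th percentile). In the H2030-labelled pair the medians of the replication lists lie at -0.12 and -0.23 and that of the G2 and mitosis list at 0.38.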

How the data were processed

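The members and gene lists were chosen with earlier results of these data known. The deposited values are FPKM per gene, named so per the file headers; per the submitters' processing notes, Cufflinks, STAR, cutadapt and FastQC were used with build hg38; versions are not given. No counts were used. FPKM depends on the library total, so abundant genes shift all others.

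From these values limma 3.58.1 (R 4.3.3) fitted log2(FPKM+1) by lmFit and trended eBayes, with the cell line as a block for malin minus empty vector and with the vector as a term between lines. Protein-coding genes (RefSeq table of GRCh38.p14, 19770 of 19903 genes matched) with a mean FPKM of at least 1 entered, and p-values were adjusted by Benjamini-Hochberg over all 12184. Both fits had 2 residual degrees of freedom and a common spread per gene over the lines. Differences on the FPKM+1 scale understate changes of low genes. The script was tested on simulated data.

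Pairs come from the cell line label. Deviations of a line's 2 libraries from their group means correlated at 0.966 in A549, 0.965 in H1299 and 0.929 in the H2030-labelled pair, across genes.

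Library depth is an estimate, from how low FPKM values are spaced once multiplied by transcript length less 100 bases. Of these, 80.1% to 81.8% lay within 0.2 of a whole fragment, where chance gives 40% for a step known beforehand; here it was taken from the same values. Exact binomial intervals at 95% rest on these estimates and cover counting error only.

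Overlaps and copies are from GENCODE on GRCh38 and the RefSeq table. Of the 43 genes, 8 share at least 10% of their exonic bases with another gene and 8 have a named pseudogene. Genes given with values were those lower in all 3 lines, the 5 highest and 5 lowest of each line, the 3 with the largest mean difference in each role, the 10 with the widest range between lines, and up to 4 of each further list, some of which are not reported here; other genes named were chosen after their values were seen. Alternatives changed the pseudocount (0.1, 5), the filter (none, mean FPKM 5), the scaling (quantile normalization, median of ratios), the gene classes, the trend, the block or vector term, and left out each library or pair. Other software was matplotlib 3.10.9, scipy 1.17.1, pandas 2.3.3, numpy 2.4.6 and Python 3.11.15.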

Additional observations from a re-analysis of the deposited data

Results flagged for a closer look

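In 6 of the 42 genes with a transcript length the counting intervals of the malin-to-empty ratio lay on opposite sides of 1 in 2 lines, which drew attention to them. The difference between the lines was not tested, since each line had 1 pair of libraries, and the intervals cover counting error only. The same count was not made over all genes, so whether it is high for these genes is not known. RRM2 had an interval of 1.62 to 1.81 in the H2030-labelled pair and 0.89 to 0.98 in A549, and its log2 difference in the H2030-labelled pair exceeded that in A549 by 0.86. The helicase subunits MCM5 (1.21 to 1.40 and 0.84 to 0.95) and MCM6 (1.17 to 1.32 and 0.85 to 0.96) had the same order of lines, with gaps of 0.54 and 0.45, and so did GINS1 (1.07 to 1.30 and 0.79 to 0.96), with 0.43. UHRF1 had the opposite order, at 0.87 to 0.98 in the H2030-labelled pair and 1.03 to 1.21 in A549, a gap of -0.26. RFC3 was at 1.04 to 1.26 in the H2030-labelled pair and 0.72 to 0.91 in H1299, a gap of 0.48.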

How the results depend on the processing

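The counts and medians of the 43 genes and their comparisons were recomputed. Of these values, 203 stayed within the spread or within 1.5 times of the reported value and 18 moved. The cause of the moves was not tested. Many of the 203 could not move. A changed pseudocount cannot turn the sign of a difference, and a changed filter or set of gene classes leaves the differences within a pair as they were. The 203 are therefore no measure of how firm the results are. Leaving out 1 pair gave 0 to 6 genes past the threshold for malin (0 of the 43). It also gave 15 to 22 of the 43 genes (34.9% to 51.2%) lower in all lines used, beside 22.2% to 26.0% of all genes. With all 3 lines, 27.9% of the 43 and 11.3% of all genes were lower. With 1 line fewer to agree, the count of the 43 cannot fall. The same holds for the 2 to 3 of the 43 that were higher, whose share over all genes was not counted. Under median-of-ratios scaling 6 of the 43 genes were lower in the H2030-labelled libraries than in A549, 3 were lower by 1.5-fold with malin in the H2030-labelled pair, and the median there was -0.0628. Leaving out 1 library gave 1 to 5 genes lower in the H2030-labelled libraries than in A549 and 2 to 5 than in H1299, and 6 to 15 genes higher and 9 to 21 lower in A549 than in H1299. With 1 pair left out the mean log2 difference ranged from -0.2761 to 0.0025 for CDC6, -0.2372 to 0.0447 for GINS3, -0.4047 to 0.0644 for UNG, -0.3242 to 0.0275 for RFC2 and -0.0431 to 0.3863 for RRM2. Their sign turned without the H2030-labelled pair. It ranged from -0.0758 to 0.0253 for CHAF1B and -0.0222 to 0.1093 for UHRF1, whose sign turned without A549. Without the replicate block 0 of the 43 genes and 0 of all genes passed, so the pairing changed no call at the adjusted threshold. At an unadjusted p under 0.05 (limma) there were 0 genes without the block, against 213 with it, PCNA among them. Depth limits what can be said of the small differences in A549 and H1299.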
